A study of Saccharomyces cerevisiae with 134 samples.

Results

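The genes described here code for the proteins of the cytosolic ribosome of budding yeast. They were taken by name, as the genes with a standard symbol of RPL or RPS and a number, with their A and B copies, plus RPP0, RPP1A, RPP1B, RPP2A and RPP2B of the ribosomal stalk. This gave 137 of the 6692 genes in the RNA tables, 76 of the large subunit, 56 of the small subunit and 5 of the stalk. The 3 gene tables of H3K36me3 hold 120 of the 137 among 5355 genes. The 17 outside them were RPL7B, RPL8B, RPL10, RPL12A, RPL12B, RPL13B, RPL21A, RPL22A, RPL28, RPL33A, RPL36A, RPL36B, RPL39, RPL43A, RPP0, RPS2 and RPS27A. Of the 137 genes, 118 form 59 pairs of near copies and 19 are single, and 89 carry an intron in the coding sequence. The genes of the mitochondrial ribosome are a separate group and were used for comparison only.

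A growing yeast cell spends a large share of its transcription by RNA polymerase II on ribosomal protein genes. Their promoters are bound by Rap1 with Fhl1, Ifh1, Sfp1 and, at many of them, Hmo1, and they respond as one group to nutrients and stress through the TOR and protein kinase A pathways. Most yeast introns in abundant transcripts lie in these genes, and many members are left in pairs from a duplication of the whole genome. Set2 travels with elongating RNA polymerase II and methylates lysine 36 of histone H3, and Rph1 is a demethylase that removes the trimethyl form, H3K36me3. H3K36me3 lies over the bodies of transcribed genes and recruits the Rpd3S deacetylase, which limits initiation inside genes.

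The study asked how fast H3K36 methylation comes and goes when Set2 is switched by light. Cells of the BY4741 background were grown at 30 °C. RNA was sequenced from wild type (WT) and rph1Δ cells in YPD, 3 libraries each, and from set2Δ cells expressing LANS-Set2 in SC−LEU. LANS is a light-activated nuclear shuttle, so that Set2 fused to it enters the nucleus in blue light, here 500 μW/cm2, and leaves it in the dark. Cultures kept dark were sampled at 0, 20, 40 and 60 min after the move into light, and cultures kept in light were sampled at 0, 30, 60 and 90 min after the move into the dark. H3K36me3 ChIP-seq followed both courses in set2Δ cells, and the move into the dark also in cells titled set2Δ rph1Δ with LANS-Set2, which the growth text calls rph1Δ expressing LANS-Set2. All cells of the 3 courses thus carry the light-driven protein. Loss of the native SET2 gene is in the sample titles for the set2Δ rph1Δ course only, and in other labels of the data for the rest. The promoter that drives LANS-Set2 is not given in the sources used here. Each group had 3 libraries, except RNA at 60 min of light with 2, and the labels do not say whether these came from separate cultures, so p-values measure the spread between libraries, which may be technical.

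The labels were checked on marker transcripts. RPH1 was at 16.3 ± 0.938 TPM (SD, n = 3) in WT, TPM being abundance scaled to effective length and library total, and at 0.0139 ± 0.0127 in rph1Δ. SET2 TPM was 17.1 ± 0.151 in WT and 133 ± 26.8 in cells kept dark with LANS-Set2, and the LEU2 marker went with it (0.238 ± 0.0737 and 253 ± 21.2 TPM). The 6 genes of the a mating type in the marker list summed to 2325 to 9363 TPM and the 4 alpha genes to 12.3 to 22.6 TPM over all libraries, and the labels give the mating type as MATa. WT and rph1Δ libraries held 9295949 to 14334963 estimated reads and course libraries 10551857 to 29032861 reads recovered from TPM.

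Copies of a pair can be hard to tell apart, which bears on every value below. RPL41A and RPL41B, the shortest members at 78 coding bases, differ at 1 base, C9T, with positions counted from the A of the start codon. Their coding sequences (reference assembly R64, both on the minus strand, at chrIV:130407-130484 and chrIV:221724-221801) are printed with that base in capitals.

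RPL41A: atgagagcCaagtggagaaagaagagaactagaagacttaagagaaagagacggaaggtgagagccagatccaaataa

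RPL41B: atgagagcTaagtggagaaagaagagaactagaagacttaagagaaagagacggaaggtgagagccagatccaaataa

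Across the 59 pairs the coding sequences were 68.2% identical in RPP1 to 99.4% in RPL1, with a median of 93.2%. In 8 pairs, among them RPL1, RPL4, RPL7, RPL11, RPL35, RPL41 and RPS6, fewer than 50% of the 50-base windows occurred only once among coding sequences. RNA values of single copies in these pairs depend on how the quantifier split shared reads and are uncertain. Their H3K36me3 values may be uncertain as well, which was not tested.

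The core of the Rap1 site, CCCNTACA or its reverse complement TGTANGGG, was searched on both strands of the 500 bases before each coding start. It was found before 41 of the 137 genes (29.9%), before 243 of 6000 protein-coding genes (4.05%) and before 4 of 67 genes of the mitochondrial ribosome (5.97%). The palindromic string CGTNNNNNNNACG was before 7 of the 137 (5.11%) and 258 of the 6000 (4.30%). It is not the consensus of the Abf1 site, so Abf1 sites were not counted. A match is a string of letters and not a measured site, and other forms of the Rap1 site were not searched. Stretches around the match are shown for a member with 2 matches in opposite orientation and a member with 2 matches side by side. They are also shown for RPS11B, called in the test of loss between set2Δ rph1Δ and set2Δ cells, and for the RPL41 pair. The RPS11B call was lost under several settings given below. The RPL41 matches lie in unlike surroundings although the coding sequences are nearly the same. Capitals mark the match, each line runs 5′ to 3′ on the gene's strand in R64, and the matches start 281 and 217 bases before the coding start of RPL13A (chrIV:308103-308254, plus), 469 and 456 before RPL33B (chrXV:779814-779905, minus), 303 before RPS11B (chrII:332488-332575, plus), 301 before RPL41A (chrIV:130738-130825, minus) and 343 before RPL41B (chrIV:222097-222184, minus).

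RPL13A: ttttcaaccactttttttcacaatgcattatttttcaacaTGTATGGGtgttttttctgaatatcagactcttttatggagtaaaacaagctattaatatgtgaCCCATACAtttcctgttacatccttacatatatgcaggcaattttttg

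RPL33B: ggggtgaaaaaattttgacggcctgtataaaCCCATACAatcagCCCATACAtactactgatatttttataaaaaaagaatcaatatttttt

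RPS11B: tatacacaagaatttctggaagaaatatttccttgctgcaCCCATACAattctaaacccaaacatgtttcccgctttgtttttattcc

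RPL41A: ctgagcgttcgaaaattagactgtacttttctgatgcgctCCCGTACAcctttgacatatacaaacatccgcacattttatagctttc

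RPL41B: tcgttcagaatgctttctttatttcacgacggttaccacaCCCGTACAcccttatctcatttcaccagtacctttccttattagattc

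Members with and without a match overlapped widely. The median WT level was 1960.5 TPM with a match (41 genes) and 2303 TPM without, and the median H3K36me3 value in constant light was 0.571 (34 genes) and 0.531 (86 genes).

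In WT cells in YPD the 137 genes took 15.7%, 16.1% and 16.4% of all estimated reads in the 3 libraries, and 42.0%, 42.6% and 42.8% of all TPM. The large subunit accounted for 8.14% ± 0.179 of reads, the small subunit for 7.13% ± 0.165 and the stalk for 0.789% ± 0.0361 (SD, n = 3). The share in TPM exceeds that in reads because TPM divides reads by an effective length, which the quantifier sets to the coding length less up to 249 bases and which becomes very small for short genes. The effective length of RPL41A and RPL41B was 4.03 bases and that of RPL29 (180 coding bases) 8.00, and 11 members and 354 genes in all lay under 20 bases.

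The 4 highest members by TPM were RPS27B at 20048 ± 134 TPM, RPL29 at 18013 ± 387, RPS28A at 13506 ± 499 and RPL38 at 12142 ± 559 (SD, n = 3), all with short coding sequences. Per kilobase of coding sequence instead, as RPKM (reads scaled to coding length and library size), RPS31 was highest at 10237 ± 154, and other high members were RPL3 at 6453 ± 181 and RPS2 at 6196 ± 192. RPS31 codes for ubiquitin fused to a small subunit protein, and RPL3, with the longest coding sequence of the set, for a protein near the peptidyl transferase centre. RPS28A had rank 3 by TPM and rank 80 by RPKM, so the order among short members is set by the length used. Across the 137 genes the Spearman correlation with coding length was −0.52 for TPM and 0.18 for RPKM, as a description over genes that share libraries.

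The lowest members by TPM were RPL15B at 32.4, 34.1 and 32.2 TPM, RPL7B at 78.3 ± 4.31, RPL41B at 187 ± 56.0 and RPS9A at 216 ± 3.01 (n = 3). Each is the lower copy of a pair, and the RPL41 copies rest on few reads, with means of 32.3 and 20 per WT library for A and B. The stalk proteins, acidic proteins that recruit elongation factors to the ribosome and sit on RPP0, were even among themselves. RPP1A was at 4965 ± 225 TPM, RPP1B at 4572 ± 46.5, RPP2A at 4819 ± 224 and RPP2B at 5324 ± 150, with RPP0, which has a longer coding sequence, at 2301 ± 106. By RPKM the order turned, with RPP0 at 4344 ± 232 and the other 4 between 2640 and 3452. The ubiquitin fusions of the large subunit, RPL40A and RPL40B, were at 2688 ± 27.5 and 2007 ± 29.2 TPM.

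The copies of a pair differed by a median of 1.60-fold in WT TPM, and 21 of the 59 pairs differed by over 2-fold. The most unequal pair was RPL15, with RPL15A at 2764, 2816 and 2794 TPM and RPL15B at or below 34.1 TPM. RPS9 followed with RPS9A at 216 ± 3.01 and RPS9B at 2852 ± 49.6 TPM. RPL7 (A 697 ± 17.7, B 78.3 ± 4.31), RPL18 (A 2377 ± 96.3, B 314 ± 11.2) and RPL22 (A 1886 ± 49.9, B 252 ± 12.5) completed the 5 widest. In each of these pairs the libraries of the copies were far apart. For RPL7 the sequence overlap leaves the split uncertain, with 43.1% unique windows. The Spearman correlation between WT TPM and the share of unique windows was 0.63 over the 137 genes, as a description. The 16 genes with under 50% unique windows had a median of 351 TPM and the other 121 a median of 2377 TPM, and the part that read assignment plays in this was not tested.

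**Figure D1:**
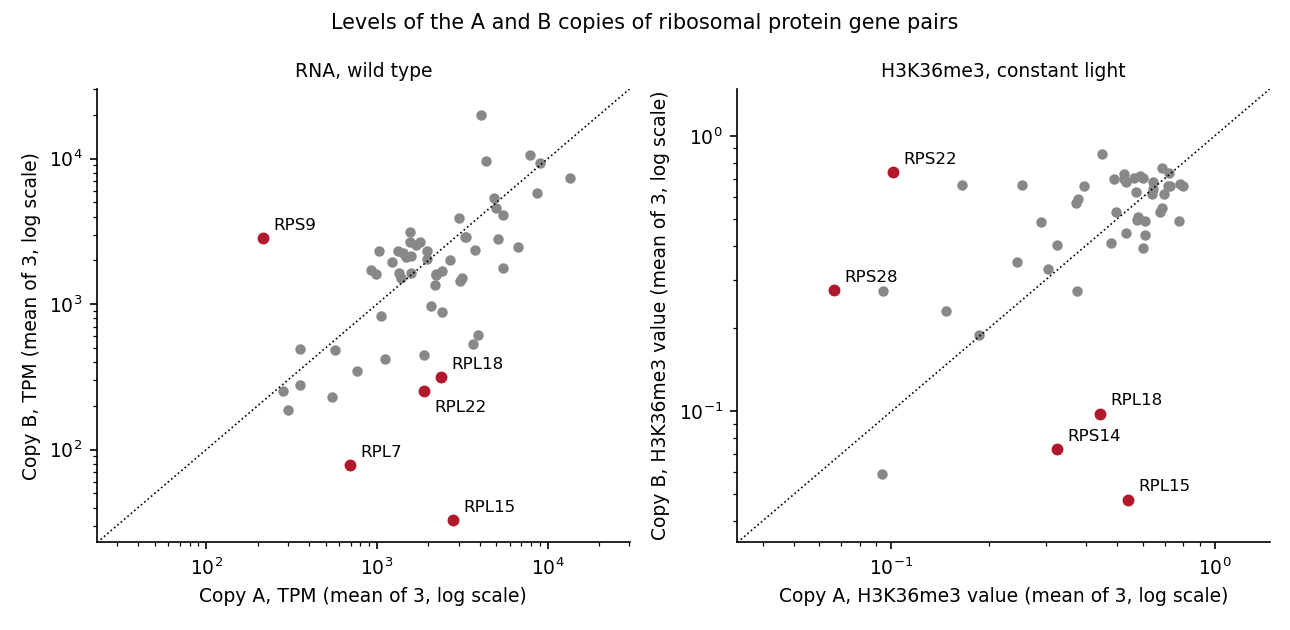
Copy A (horizontal axis) against copy B (vertical axis) of each pair on log axes, as mean TPM in WT (59 pairs) and as mean H3K36me3 value in constant light (49 pairs with both copies in the tables), with the line of equal values and the most unequal pairs named in red. By TPM, 21 pairs differ by over 2-fold, and by the mark 8 pairs do.

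The first comparison asked whether loss of the demethylase Rph1 changes these transcripts. Of the 137 genes none was higher and 1 was lower in rph1Δ than in WT by edgeR's quasi-likelihood test with Benjamini-Hochberg adjustment at 0.05, while 12.3% of the 6088 genes tested were called, 9.46% higher and 2.83% lower. The 1 gene was RPS31, at 8802, 8553 and 8779 TPM in WT and 8112, 8192 and 8089 TPM in rph1Δ. The groups did not overlap, and the log2 change was −0.11 ± 0.03 (SE) with an edgeR adjusted p of 0.0428. The call was lost on leaving out any of 5 of the 6 libraries and kept without WT replicate 1, and 4 members were lower without WT replicate 1 or without rph1Δ replicate 3, where 2.92% and 1.77% of genes were. At an unadjusted p under 0.05 there were 4 members, RPS31, RPL31A, RPS14B and RPL9B, and 25.5% of all genes. DESeq2 called 0 higher and 1 lower.

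The median log2 change of the 137 was −0.03, against −0.01 over all genes, with 114 of 137 below 0 and all values between −0.16 and 0.43. In 10 members the rph1Δ libraries lay wholly below WT in TPM and in 3 wholly above, where 9.17% and 16.7% of genes did so. RPS14B, a copy whose splicing its own protein represses, had 532, 521 and 536 TPM in WT and 512, 463 and 496 TPM in rph1Δ (log2 change −0.12 ± 0.05, edgeR adjusted p 0.115). RPL9B, the lower copy of the pair, had 428, 462 and 453 TPM in WT and 481, 492 and 491 in rph1Δ (0.11 ± 0.04, edgeR adjusted p 0.119). Neither passed the test, although the groups did not overlap in either gene. The median shift of the A to B ratio of a pair was 0.03 on the log2 scale, and the largest besides RPL41 was 0.17 in RPL9.

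The RNA courses were tested with limma on log2(TPM + 1), on which scale the changes given here lie, for genes with a mean of at least 1 TPM. In bulk RNA, fewer cells that express these genes and less RNA per cell cannot be told apart. After the move into light, the 137 genes took 11.1%, 11.2% and 10.5% of reads at 0 min, 9.98%, 10.5% and 10.2% at 20 min, 9.49%, 9.73% and 9.25% at 40 min, and 9.67% and 9.55% at 60 min. All 40 and 60 min libraries lay below the lowest 0 min library. The summed TPM of the 22 genes of the stress list went the other way, at 4274 ± 456 at 0 min, 5607 ± 527 at 20 min, 7955 ± 1008 at 40 min (n = 3) and 8404 and 6929 in the 2 libraries at 60 min, and its part in the result was not tested.

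**Figure D2:**
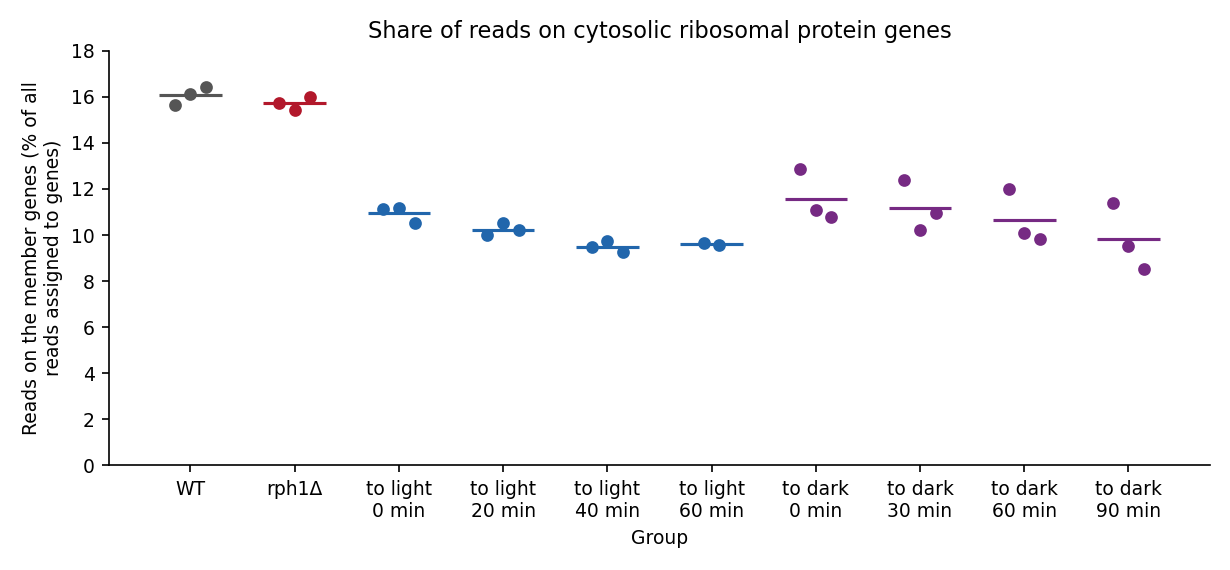
Share of all reads taken by the 137 ribosomal protein genes (vertical axis, percent) in each RNA library by group, with a line at each group's mean. WT and rph1Δ libraries in YPD lie between 15.4% and 16.4%, and course libraries in SC−LEU between 8.54% and 12.9%.

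At 20 min limma called none of the 137 in either direction, where 0.0169% of 5907 genes were called, with 3 members and 9.01% of genes at an unadjusted p under 0.05. On reads recovered from TPM, edgeR also called none, with 48 members and 10.2% of genes at an unadjusted p under 0.05. The median log2 change was −0.09 for the members and 0.04 for all genes. In 32 members all 20 min libraries lay below all 0 min libraries in TPM and in none above them, against 3.74% and 10.6% of genes.

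At 40 min limma called 1 member lower and none higher, where 0.254% of genes were lower and 3.54% higher, 3.79% in all. The median was −0.18 for the members and 0.10 for all genes, 136 of 137 lay below 0, and 85 had an unadjusted p under 0.05, as did 26.2% of genes. In 113 members all 40 min libraries lay below all 0 min libraries in TPM and in 1 above them, against 6.77% and 28.9% of genes. On reads recovered from TPM, edgeR called 91 of the 137 lower and none higher, where 4.77% of 5869 genes were lower and 3.44% higher, 8.21% in all, with a median of −0.27 for the members and 0.01 for all genes. The number of members called thus depended on the test and scaling, while the median of the members was below 0 under all alternatives run.

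The called member was RPL9A, the more abundant copy of a large subunit protein, at 1235, 1182 and 1143 TPM at 0 min and 957, 989 and 910 TPM at 40 min. The groups did not overlap, the log2 change was −0.32 ± 0.07 (SE) and the limma adjusted p 0.0467. The call was lost without replicate 1, 2 or 3 in turn, and with edgeR on recovered reads the change was −0.41 ± 0.06 with an adjusted p of 0.0106. Its copy RPL9B had 589, 573 and 507 TPM at 0 min and 538.8, 515 and 510 at 40 min (−0.09 ± 0.07, limma adjusted p 0.451), so these libraries overlapped.

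RPL15B was the 1 member above 0 at 40 min. It had 53.5, 46.1 and 47.9 TPM at 0 min and 61.6, 59.4 and 54.4 TPM at 40 min, groups that did not overlap, with a change of 0.25 ± 0.09 and a limma adjusted p of 0.127. It did not pass that test. Large subunit, small subunit and stalk members each had a median of −0.18 at this time, and members with and without an intron −0.19 and −0.16.

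At 60 min, with 2 libraries, limma called none of the 137 (smallest adjusted p 0.0766, in RPL9A among others, and 96 members and 19.6% of genes at an unadjusted p under 0.05), where 0.0508% of genes were called. The median log2 change was −0.23 for the members and 0.08 for all genes, and 120 members lay below 0. In 105 members both 60 min libraries lay below all 0 min libraries and in 5 above them, against 6.72% and 26.6% of genes. With edgeR on recovered reads 63 members were lower and none higher, where 1.70% of genes were lower and 0.665% higher, 2.37% in all. The members farthest above 0 were RPL41A at 1647 and 683 TPM against a 0 min range of 275 to 379, and RPL41B at 1765 and 609 TPM against 287 to 402. The first 60 min library was more than 2-fold above the second in either copy. The changes were 1.69 ± 0.53 and 1.58 ± 0.46 with limma adjusted p of 0.133 and 0.12, and they rest on 129 to 315 reads per library at 60 min. In that first library genes with an effective length under 20 bases took 32.8% of all TPM, against 25.7% in the highest 0 min library. At 20 min RPL41A had 185, 704 and 595 TPM in libraries where these genes took 21.7%, 27.9% and 27.8%. The part that this share plays in the RPL41 values was not tested.

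**Figure D3:**
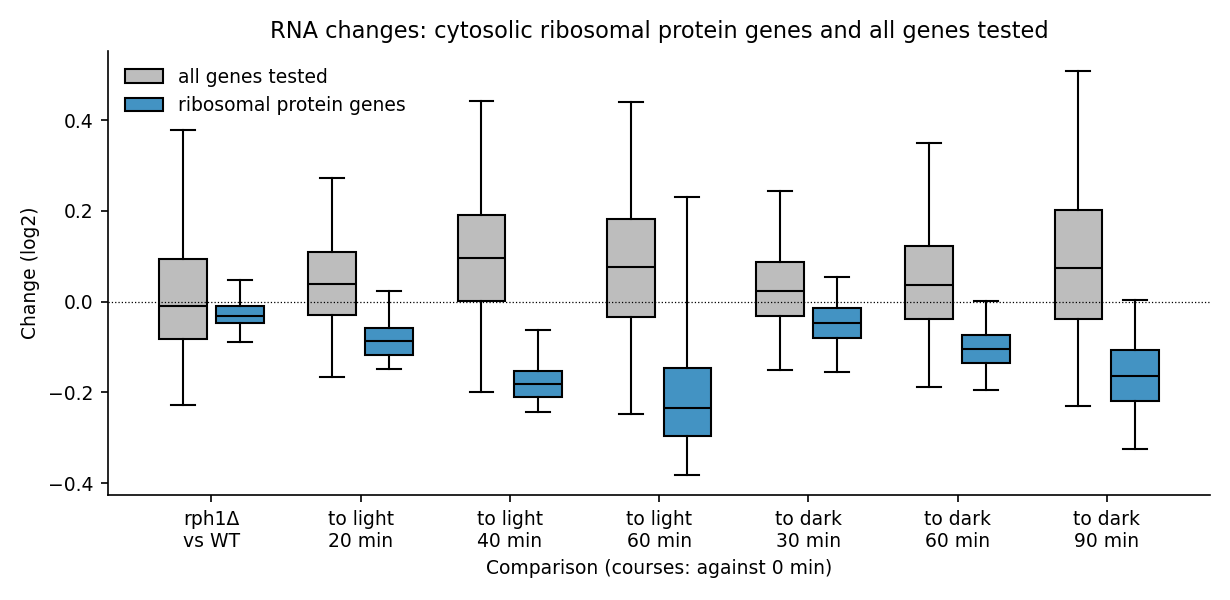
Log2 change in the RNA comparisons (vertical axis) for all genes tested and for the 137 ribosomal protein genes, with boxes at the quartiles and whiskers at the 5th and 95th percentiles. In the 3 light comparisons the members have medians of −0.09, −0.18 and −0.23 and in the 3 dark comparisons −0.05, −0.10 and −0.16, on log2(TPM + 1), while rph1Δ against WT is centred near 0.

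After the move into the dark the members took 12.9%, 11.1% and 10.8% of reads at 0 min, 12.4%, 10.2% and 10.9% at 30 min, 11.98%, 10.1% and 9.84% at 60 min, and 11.4%, 9.53% and 8.54% at 90 min. Replicate 1 was the highest library at every time, and the groups overlapped. Under each replicate number, however, the share was lower at 90 min than at 0 min. Limma called 0 of the 137 genes at 30, 60 and 90 min, where 0, 0.306% and 1.95% of 5884 genes were called (0.034% lower at 60 min and 1.65% higher at 90 min), with 0, 4 and 28 members and 2.45%, 7.09% and 13.8% of genes at an unadjusted p under 0.05. On recovered reads edgeR also called 0 members at each time, with 0, 0 and 4 members and 2.86%, 8.24% and 14.6% of genes at an unadjusted p under 0.05, where 0, 0.722% and 3.35% of 5814 genes were called (at 60 min 0.688% higher and 0.0344% lower, at 90 min 2.8% and 0.55%). The medians of the members were −0.05, −0.10 and −0.16 and those of all genes 0.02, 0.04 and 0.07, and 107, 128 and 129 of the 137 lay below 0. Libraries lay wholly below those at 0 min in 1, 8 and 16 members, where 1.46%, 3.6% and 5.4% of genes did so, and wholly above in 1, 2 and 1, where 4.16%, 7.8% and 11.6% did. Without replicate 1 limma called 7 members lower at 90 min, where 0.919% of genes were lower. With the replicate number as a block, members were also called lower at 90 min, with counts given under the dependence on processing.

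RPL15B was again the member farthest above 0 at 90 min. It had 54.4, 51.6 and 46.9 TPM at 0 min and 58.9, 59.97 and 61.8 TPM at 90 min, a change of 0.24 ± 0.08 with a limma adjusted p of 0.18. RPS29A, a short zinc-binding protein of the small subunit, had a change of −0.53 ± 0.19 and RPL41A one of −0.63 ± 0.44, neither of which passed. The stress list summed to 5277 ± 459 TPM at 0 min, 5562 ± 151 at 30 min, 7222 ± 572 at 60 min and 8478 ± 682 at 90 min (n = 3), and so was higher at the last time of both courses. The courses were sequenced as separate tables, and no test of one against the other was made.

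The authors' deposited tables of changed genes list 2, 110 and 101 of the 137 genes at 20, 40 and 60 min of light, among 88, 687 and 445 genes (1.32%, 10.3% and 6.65% of 6692). They list none of the 137 at 30, 60 and 90 min of darkness, among 14, 117 and 313 genes (0.209%, 1.75% and 4.68%). The sign in the authors' deposited tables was opposite to the change in the deposited TPM for 100% of the genes that could be compared in each table, so that a positive value there goes with a higher level at 0 min. Read by TPM, all 110 members listed at 40 min were lower than at 0 min, and at 60 min 99 were lower, while RPL41A and RPL41B were higher. Their median fold change in the authors' deposited tables was 0.27 at 40 min and 0.31 at 60 min in size, on the log2 scale.

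Lists of related genes were set beside the members, and these lists were chosen with earlier results of the data known. In rph1Δ the 20 regulators of ribosomal protein genes had 1 call higher, the kinase YAK1 (0.21 ± 0.06, edgeR adjusted p 0.0393), and 1 lower, ABF1 (−0.14 ± 0.04, adjusted p 0.0404), with a median of −0.02. Of all genes tested 9.46% were higher and 2.83% lower in that comparison. None of the 15 chaperones and carriers of ribosomal proteins or of the 77 ribosome biogenesis genes was called there. At 40 min of light 0 of 20 regulators and 0 of 15 chaperones were called by limma, where 3.79% of genes were. The regulators had a median of 0.04, below the 0.10 of all genes. RAP1 was at 35.0 ± 0.234 TPM at 0 min and 33.3 ± 0.633 at 40 min, FHL1 at 15.4 ± 2.06 and 16.3 ± 1.45, IFH1 at 24.3 ± 0.720 and 24.02 ± 1.41, and SFP1 at 31.4 ± 1.87 and 32.1 ± 1.07 TPM. None of these activator transcripts passed the test.

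Of the 77 ribosome biogenesis genes 5 were lower and 0 higher at 40 min of light by limma, with a median of −0.18, among them ENP1 (−0.23 ± 0.05, adjusted p 0.0314), a factor of small subunit maturation, and NOC2 (−0.24 ± 0.05, adjusted p 0.0368), which acts in export of large subunit precursors. Over all genes 0.254% were lower and 3.54% higher at this time. Of the 22 stress genes 11 were higher and 0 lower, with a median of 0.67, including SOL4 (1.06 ± 0.14), HSP42 (0.79 ± 0.12) and GSY2 (0.66 ± 0.10), with limma adjusted p between 0.0132 and 0.0173. The 67 genes of the mitochondrial ribosome had 1 call higher and a median of 0.15. At 90 min of darkness 3 stress genes were higher, among them DDR2 (1.00 ± 0.10) and HSP12 (0.83 ± 0.12), and no regulator, chaperone or biogenesis gene was called by limma. Over all genes 1.65% were higher and 0.306% lower there.

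H3K36me3 was followed as the deposited value per gene, whose unit and normalization are not given in the sources used here, and levels are compared between tables only side by side. The members carried high values in every group. In constant light, at 0 min of the dark course, the median member was at 0.498, 0.603 and 0.514 in the 3 libraries and the median gene at 0.0962, 0.1205 and 0.0996. The ratio was thus about 5 in each library, and 95 of the 120 genes (79.2%) lay above the 90th percentile of all genes. In constant dark the median member was at 0.0962 ± 0.0134 (SD, n = 3) and the median gene at 0.0224 ± 0.00168, and 116 of the 120 lay above the median gene. In set2Δ rph1Δ cells in light the median member was at 0.742 ± 0.123 and the median gene at 0.196.

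Within the 120 genes levels ran from 0.0478 in RPL15B to 0.987 in RPL8A in constant light. RPL8A, a large subunit member without an intron, had 0.997, 1.08 and 0.883, and RPS19B, a small subunit protein of the head, 0.891, 0.899 and 0.793. At the low end RPL15B had 0.0441, 0.0562 and 0.0430, RPL41B 0.0547, 0.0705 and 0.0520, and RPS28A 0.0597, 0.0868 and 0.0534. The lowest members thus lay below the median gene of the same libraries. The order of members was nearly the same between settings, with a Spearman correlation over the 120 genes of 0.94 between constant dark and constant light and 0.97 between set2Δ and set2Δ rph1Δ cells in light, as a description over genes.

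Long members and members with introns carried more of the mark. In constant light the median was 0.574 for the 78 genes with a coding intron and 0.348 for the 42 without. By the length of the gene it was 0.290 under 500 bases (23 genes), 0.461 from 500 to under 800 (38) and 0.602 at 800 or more (59). Other protein-coding genes of these lengths had 0.0501, 0.0650 and 0.133, so the members were higher within each length class. Length and introns go together here, since no member with an intron is under 500 bases. The Spearman correlation with gene length was 0.41 among members without an intron, 0.44 among those with one and 0.51 over 5242 genes.

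The Spearman correlation of the mark with RPKM in WT was 0.32 over the 120 genes and 0.55 over 5348 genes, and that with TPM 0.02 over the 120. Members and all genes were not compared over a matched range of RNA levels. These values therefore do not show whether the mark follows RNA less closely at the members. The WT cells grew in another medium than the cells of the ChIP libraries. The 4 stalk genes in the tables had a median of 0.188 in constant light, with RPP1A at 0.129, 0.177 and 0.136, RPP1B at 0.205, 0.265 and 0.222, RPP2A at 0.174, 0.206 and 0.180, and RPP2B at 0.164, 0.218 and 0.187. These genes have short coding sequences and high RPKM, and they lay below the members' median in every library. RPP1B has an intron and so is not among the genes under 500 bases. RPL30, whose protein blocks splicing of its own transcript, was also low at 0.143 ± 0.0264, while RPL3 was at 0.724 ± 0.0636, the long RPL4A and RPL4B at 0.374 ± 0.0720 and 0.272 ± 0.0313, and the ubiquitin fusions RPL40A and RPL40B at 0.610 ± 0.0374 and 0.436 ± 0.0473.

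**Figure D4:**
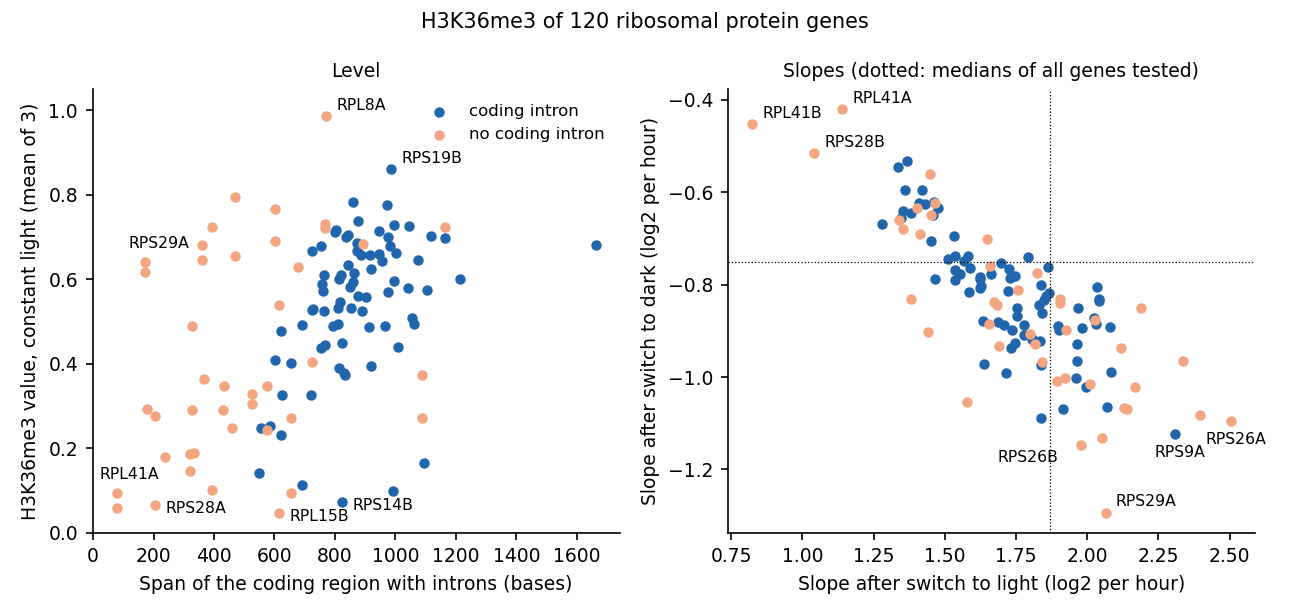
Left, H3K36me3 value in constant light (vertical axis) against gene length in bases (horizontal axis) for the 120 members, coloured by coding intron. Right, slope per hour after the move into light (horizontal axis) against slope per hour after the move into the dark (vertical axis) on the log2 scale, with dotted lines at the medians of all genes, 1.87 and −0.75. Members with introns lie higher at left, and members that gain fast lie low at right.

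Copies of a pair differed in the mark by a median of 1.28-fold in constant light, and 8 of 49 pairs differed by over 2-fold. In the RNA of WT cells in YPD the same 49 pairs differed by a median of 1.60-fold and 17 of them by over 2-fold, and the difference between the mark and the RNA was not tested. The copy with the higher mark was also the one with the higher WT TPM in 32 of the 49, and in 39 of 49 the same copy was higher in all 12 group means. RPL15 was the most unequal, with RPL15A at 0.503, 0.597 and 0.519 and RPL15B at or under 0.0562, in the same direction as the RNA.

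RPS22 went against the RNA. RPS22A, without an intron, had 0.0858, 0.119 and 0.0996 and a WT level of 3921 ± 11.3 TPM, while RPS22B, with a coding intron, had 0.661, 0.834 and 0.716 and 613 ± 10.7 TPM. The libraries of the copies were far apart in either readout, in opposite directions. RPP1 is the other pair in the tables with a coding intron in 1 copy only, and there too the copy with the intron, RPP1B, had the higher mark. RPL18 (A 0.440 ± 0.0508, B 0.0982 ± 0.0177) and RPS14 (A 0.326 ± 0.0376, B 0.0728 ± 0.00714) had introns in both copies and the higher mark at the copy with more RNA. RPS28, which has no intron, went against the RNA, with A at 0.0666 ± 0.0178 and B at 0.276 ± 0.0435 and WT levels of 13506 ± 499 and 7388 ± 141 TPM.

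Neighbours on a chromosome could be far apart. RPS19B (chrXIV:61958-62943) and RPL18B (chrXIV:63570-64562), next to each other on the minus strand, had 0.861 ± 0.0593 and 0.0982 ± 0.0177 in constant light. RPS14B (chrX:73787-74611, plus) and RPS22A (chrX:74910-75302, minus) were both low, at 0.0728 ± 0.00714 and 0.101 ± 0.0165.

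After the move into light all 120 members gained the mark. The median member went from 0.0962 ± 0.0134 at 0 min to 0.188 ± 0.0294 at 20 min, 0.288 ± 0.0778 at 40 min and 0.367 ± 0.0666 at 60 min (SD, n = 3), while the median gene went from 0.0224 to 0.0983. On the log2 scale, with 0.1 of the table's median value added first, limma called the slope over time above 0 in 120 of 120 members and in 99.9% of 4816 genes. The median slope was 1.74 per hour for the members and 1.87 for all genes, and the members ranged from 0.82 in RPL41B to 2.50 in RPS26A.

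**Figure D5:**
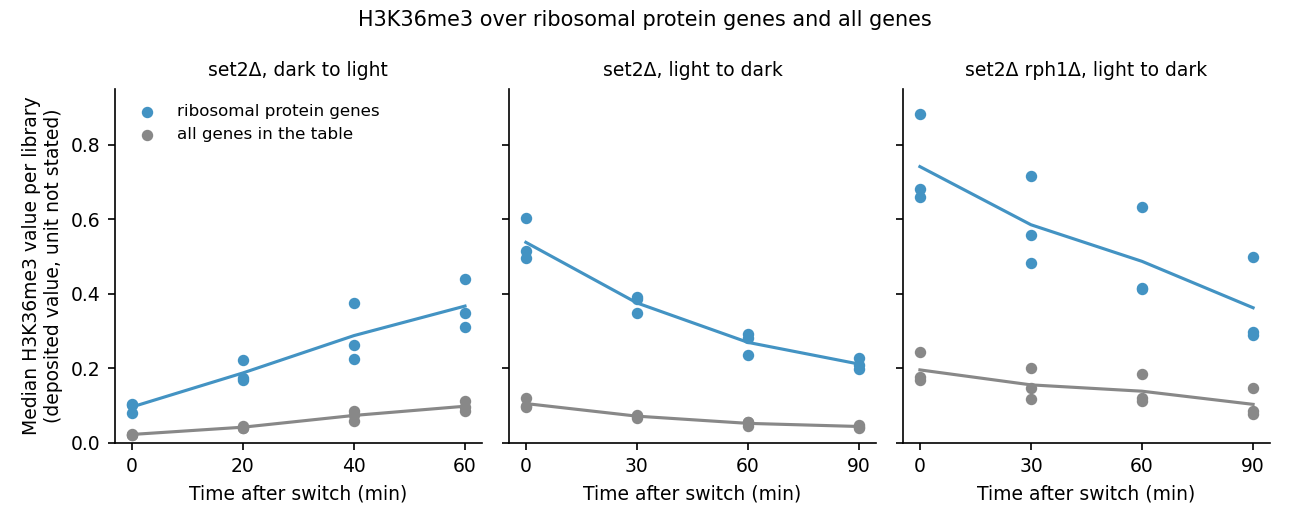
Median H3K36me3 value of the 120 members and of all genes in each library (vertical axis) against minutes after the switch (horizontal axis) for the 3 courses, with lines through the means of 3 libraries. The members go from 0.0962 to 0.367 in light, from 0.538 to 0.211 in the dark and, in set2Δ rph1Δ cells, from 0.742 to 0.363 in the dark.

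To compare members with the bulk of the genome, each library was centred on its median gene. In light 5 members were above and 54 below by limma on the centred slope, where 14.0% and 37.0% of genes were, and the median was −0.23 for the members and −0.10 for all genes. The counts above and below changed with the value added before the log. With a whole table median in place of 0.1 of it, 68 were above and 13 below and their median was 0.27, where 36.5% of genes were above and 40.9% below. The larger value flattens the slopes of low genes more than those of the members, so this setting cannot decide on which side they fall. With centring on short genes outside the set 24 were above and 9 below, where 51.4% and 8.58% of genes were.

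RPS26A, a small subunit protein at the messenger RNA exit, gained fastest. It went from 0.0514, 0.0907 and 0.0876 at 0 min to 0.393, 0.410 and 0.5999 at 60 min, with a centred slope of 0.54 ± 0.20 per hour (limma adjusted p 0.0363). The other 4 above the median gene were RPL32 (0.43 ± 0.16), RPL9B (0.37 ± 0.10), RPS9A (0.34 ± 0.09) and RPL1B (0.22 ± 0.07), with limma adjusted p between 0.00608 and 0.0409. RPS9A, the low copy of its pair in RNA, went from 0.0321 ± 0.00656 to 0.172 ± 0.0308, and RPS9B from 0.138 ± 0.0229 to 0.426 ± 0.0767. Of the 5 called above, 2 to 3 were called on leaving out one replicate number at a time.

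RPL41B gained least, from 0.0304, 0.0305 and 0.0212 at 0 min to 0.0392, 0.0545 and 0.0529 at 60 min, with a centred slope of −1.14 ± 0.12 (limma adjusted p 3.62e-05). RPS28B (−0.93 ± 0.11), RPL41A (−0.83 ± 0.11), RPL18B (−0.69 ± 0.08) and RPS6A (−0.63 ± 0.15) followed, with adjusted p of at most 0.00381. With the whole table median added before the log the centred slope of RPS6A was 0.039, on the other side of 0. As above, that setting cannot decide the side. RPL18B had a low mark at the start, at 0.0220 ± 0.00274, and RPS6A a high one, at 0.164 ± 0.0268. The Spearman correlation between the slope and the value at 0 min was −0.35 over the 120 members, whose values at 0 min enter the slope as well.

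Of the stalk genes RPP1A (−0.63 ± 0.08), RPP2B (−0.39 ± 0.11) and RPP1B (−0.25 ± 0.09) gained less than the median gene, with limma adjusted p of at most 0.0356. RPP2A did not pass (−0.15 ± 0.07, adjusted p 0.105). RPP1A went from 0.0267, 0.0402 and 0.0285 at 0 min to 0.0749, 0.0852 and 0.0986 at 60 min.

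After the move into the dark all 120 members lost the mark. The median member was at 0.538 ± 0.0566 at 0 min, 0.376 ± 0.0230 at 30 min, 0.270 ± 0.0303 at 60 min and 0.211 ± 0.0154 at 90 min, and the slope was below 0 by limma in 120 of 120 members and 99.6% of 4813 genes. The median slope was −0.84 per hour on the log2 scale for the members and −0.75 for all genes, and the members ranged from −1.29 to −0.42. Centred on the median gene, 15 members were above and 37 below by limma, where 14.0% and 5.65% of genes were, with medians of −0.05 for the members and 0.04 for all genes. With centring on short genes 2 were above and 66 below, against 2.70% and 28.3% of genes. With the whole table median added before the log 6 were above and 102 below, against 37.8% and 34.5% of genes. That value flattens the slopes of low genes more than those of the members, which lay about 5 times above the median gene. This setting therefore cannot decide whether the direction holds. Leaving out one replicate number gave 3 to 12 above and 20 to 30 below, the lowest values being those without replicate 3, where 1.91% of genes were above and 2.62% below.

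The fastest losses after that of RPS29A were in RPS26B, from 0.618, 0.754 and 0.673 to 0.218, 0.1998 and 0.199 at 90 min (centred slope −0.36 ± 0.05, limma adjusted p 0.000504), RPL29, a short large subunit protein, from 0.292, 0.341 and 0.245 to 0.0842, 0.0820 and 0.0893 (−0.34 ± 0.06, adjusted p 0.00279), RPS9A (−0.33 ± 0.04) and RPS26A (−0.30 ± 0.04). All 90 min libraries of these genes lay below all 0 min libraries. Of the 5, RPS29A, RPS26B, RPL29 and RPS26A are under 500 bases and have no intron.

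Among the members above the median gene by limma, the largest centred slopes were those of RPS28B (0.28 ± 0.05), RPS0B (0.26 ± 0.03), RPS6A (0.25 ± 0.06), RPS11B (0.19 ± 0.03) and RPL2B (0.17 ± 0.05), with limma adjusted p of at most 0.0286. RPL41A (0.37 ± 0.13) and RPL41B (0.34 ± 0.13) had larger slopes that did not pass (adjusted p 0.0611 and 0.0782). RPS0B, a protein of the small subunit needed for its maturation, went from 0.699, 0.750 and 0.657 to 0.363, 0.459 and 0.402. RPS6A, whose protein is phosphorylated downstream of TOR, went from 0.536, 0.617 and 0.573 to 0.278, 0.376 and 0.353. RPS0B, RPS6A, RPS11B and RPL2B have introns and lie above 900 bases, and with the whole table median added before the log their centred slopes were −0.02, −0.02, −0.07 and −0.09.

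Members that gained fast also lost fast. The Spearman correlation between the slope in light and the slope in the dark was −0.78 over the 120 members, as a description over genes. It was not computed over all genes, so it is not shown to be particular to the members. Both slopes were taken with 0.1 of the table median added, and the part of this in the correlation was not tested. RPS26A and RPS9A were among the 5 called members at the fast end of both courses, and RPS28B and RPS6A among the 5 at the slow end of both. For RPS6A this held with 0.1 of the table median added before the log, and with the whole median its centred slope was 0.039 in light and −0.017 in the dark.

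The course in set2Δ rph1Δ cells addressed loss of the mark without the demethylase. All 120 members lost the mark, from a median member of 0.742 ± 0.123 at 0 min to 0.585 ± 0.1197, 0.487 ± 0.127 and 0.363 ± 0.118 at 30, 60 and 90 min, and limma called the slope below 0 in 120 of 120 and in 97.4% of 4815 genes. Replicate 3 was the highest library at every time, and without replicate 2 no member was called, where 0.0623% of genes were below 0. The median slope was −0.66 per hour on the log2 scale for the members and −0.55 for all genes, beside −0.84 and −0.75 in set2Δ cells, which come from another table. Centred, 0 members were above and 17 below by limma, where 0.187% and 1.20% of genes were, with 55 of 120 members and 13.3% of genes at an unadjusted p under 0.05, and medians of −0.10 for the members and 0.01 for all genes. Leaving out one replicate number left 0 to 7 below, with 0 without replicate 2 and 0 without replicate 3, where 0.27% and 0 of the genes were below.

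The genes that lost fastest were largely short ones again. They were RPL29 (centred slope −0.35 ± 0.07, limma adjusted p 0.0301), RPS29B (−0.31 ± 0.05, adjusted p 0.00532), RPS26A (−0.31 ± 0.06, adjusted p 0.0179), RPS9A (−0.31 ± 0.05, adjusted p 0.01004) and RPS29A (−0.28 ± 0.06, adjusted p 0.0301). RPS29B went from 0.785, 0.799 and 0.944 to 0.260, 0.291 and 0.456, groups that did not overlap. The stalk genes RPP1B (−0.25 ± 0.05) and RPP2A (−0.13 ± 0.03) were also below, with adjusted p of 0.0338 and 0.0317. The Spearman correlation of the slopes with and without RPH1 was 0.75 over the 120 members.

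The difference between the genotypes was tested as an interaction of the centred slopes. By limma 1 of the 120 members was lower and 0 higher in set2Δ rph1Δ cells, where 0.0849% and 0.0637% of 4712 genes were, with 26 members and 12% of genes at an unadjusted p under 0.05, and a median difference of −0.06 for the members and −0.03 for all genes. The member was RPS11B, a small subunit protein of the body. In set2Δ cells it went from 0.645, 0.733 and 0.659 at 0 min to 0.332, 0.409 and 0.366 at 90 min, and in set2Δ rph1Δ cells from 0.797, 0.894 and 0.988 to 0.366, 0.374 and 0.598. Its centred slope was 0.19 ± 0.03 in the first and −0.10 ± 0.05 in the second, a difference of −0.29 ± 0.06 per hour with a limma adjusted p of 0.0331. The call was lost without replicate 1 or replicate 2 and was kept without replicate 3. For the other 119 members no difference in relative loss passed the test.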

How the data were processed

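RNA was measured in 29 libraries and H3K36me3 in 36. Members and gene lists were chosen with earlier results of these data known. Genes named with values are those past a threshold (up to 5 or 6 in each direction), the highest, lowest, shortest and longest members, the most unequal pairs, and members with a known special role.

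Per the file headers, the WT and rph1Δ tables hold estimated counts (whole numbers) and TPM from Salmon. The authors' course tables hold TPM per library, not the counts the tests had been planned for, so they were tested as log2(TPM + 1). The submitters' processing notes name Salmon 0.8.1, STAR 2.5.2b and 2.5.4b, deepTools 2.5.4, DESeq2 1.14.1 and the builds sacCer3 (R64, the build used here) and ASM294v2, a fission yeast build. The mark tables hold a deposited signal value per gene, whose unit, region and spike-in scaling are not given in the sources used here; per the labels, fission yeast chromatin at 15% was added to each ChIP. The authors' deposited comparison tables hold log2 fold changes, p-values and adjusted p-values. The authors' model estimates of the mark's rate were not used.

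Reads were recovered from TPM and effective length (100% of values checked were whole within 0.05), so that edgeR could be run on the courses as an alternative. RPKM was computed from reads and coding length. Tests were edgeR 4.0.16 (quasi-likelihood) for rph1Δ against WT and limma 3.58.1 with trend for the courses, with DESeq2 1.42.0 as an alternative, in R 4.3.3, over all genes passing a filter (mean TPM of at least 1, or the mark's mean at or above the 10th percentile), with Benjamini-Hochberg adjustment at 0.05. Mark slopes were per hour on log2(value + 0.1 of the table's median), as deposited and after subtracting each library's median. The scripts were tested on simulated data. Gene models hold coding bases only. Replicate number was not used as a block in the main tests, since at least 1 same-numbered pair in each data set correlated below 0.1. In the courses same-numbered libraries still tended to deviate together. In light to dark RNA the median correlation was 0.26 for same-numbered and −0.14 for other pairs, and 9 of 12 libraries were closest to their own number. In WT and rph1Δ RNA 2 of 6 were. Tests without a block may therefore miss changes in the courses. Some members are not reported by name here.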

Additional observations from a re-analysis of the deposited data

Results flagged for a closer look

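The change in loss of H3K36me3 at RPS11B between set2Δ rph1Δ and set2Δ cells was picked out because the difference between the genotypes was itself tested and passed. The difference of the centred slopes was −0.29 ± 0.06 per hour on the log2 scale (limma adjusted p 0.0331), with slopes of −0.10 in set2Δ rph1Δ and 0.19 in set2Δ cells and 3 libraries at each time. Under the alternatives it ran from −0.33 to −0.16, always below 0. It did not pass with the whole table median added before the log, without the filter on low values, or without replicate 1 or 2. No group had the 4 libraries that a check for a single deviating library needs.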

How the results depend on the processing

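The RNA counts depended most on scaling and test. After 40 min of light, where 1 member was lower and 0 higher, there were 3 lower without the filter on low values. There were 53 lower with TPM scaled to genes outside the set. With edgeR on recovered reads 91 were lower, where 4.77% of genes were. With TPM scaled to genes of at least 20 bases effective length, chosen after seeing the data, 30 were lower and 1 higher at 40 min, and 29 lower and 2 higher at 60 min. At 60 min 63 were lower with edgeR on recovered reads, where 1.70% of genes were. Shares of all genes under the other settings of this paragraph are not given here, so those counts show only how the calls moved. The members' median ran from −0.27 to −0.16 at 40 min and from −0.33 to −0.14 at 60 min. Leaving out one replicate number gave 0 to 0 lower at 40 min and 0 to 7 lower after 90 min of darkness, and leaving out one library gave 0 to 4 lower in rph1Δ. Where this left 1 library at 60 min, that library was taken to vary like the other groups.

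The block was run as an alternative, since same-numbered libraries tended to deviate together in the courses. In 1 of 6 data sets, the mark in light, every library was closest to its own number. In the other courses 8 of 11, 9 of 12, 8 of 12 and 10 of 12 libraries were. With the block 0 members were lower in rph1Δ, 16 lower and 1 higher at 40 min of light, 20 lower at 60 min, 33 lower at 90 min of darkness, 29 below in the set2Δ rph1Δ course and 4 lower in the interaction. With edgeR on recovered reads and the replicate block, chosen after seeing the data, 12 were lower at 20 min of light, 117 lower and 1 higher at 40 min, 108 lower and 2 higher at 60 min, and 2 and 84 lower at 60 and 90 min of darkness. The share of all genes called with the block is not given here, and the cause was not tested.

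For the centred slopes the value added before the log moved the counts most. Where no share of all genes is given for a setting, here or above, its counts show only how the calls moved. With the whole table median 68 were above and 13 below in light, 6 above and 102 below in the dark, 1 above and 103 below in set2Δ rph1Δ cells, and 0 lower in the interaction. Single members that changed sign were RPS6A in light (0.039) and, in the dark, RPS0B (−0.015), RPS6A (−0.017), RPS11B (−0.070) and RPL2B (−0.093). With 1/100 of the median 2 were above in light and 6 below in set2Δ rph1Δ cells. Centring on short genes outside the set gave 24 above and 9 below in light, 2 above and 66 below in the dark, and 27 below in set2Δ rph1Δ cells. Genes at or above the median mean value, chosen after seeing the data, gave 2 above in light. The last time against 0 min gave 9 below in set2Δ rph1Δ cells, and no filter on low values 0 in the interaction. Leaving out one replicate number gave 2 to 3 above in light, 3 to 12 above and 20 to 30 below in the dark, 0 to 120 below 0 for the slope before centring in set2Δ rph1Δ cells, 0 to 7 below after centring, and 0 to 1 in the interaction.

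Over all results and alternatives, 214 counts of members stayed within 1.5 times and 62 did not, and single members kept their direction and side of the threshold in 217 cases, lost the threshold in 55 and changed sign in 5. RPL41A and RPL41B rest on 15 to 37 reads per WT library. Groups hold 3 libraries, or 2 at 60 min of light.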
